A study of Mus musculus with 11 samples.

Results

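The genes described here encode the fibroblast growth factors (FGFs), their receptors and the Sprouty and Spred proteins that restrain the same pathway. They were taken by name and comprise 33 of 21900 protein-coding mouse genes: 15 paracrine ligands, 3 endocrine ligands, 4 FGF homologous factors, 4 receptors, 4 Sprouty genes and 3 Spred genes. Fgfr2, a kinase receptor known for its role in the ureteric bud, was not among them and is given with the other pathway genes.

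FGF ligands bind receptor tyrosine kinases together with heparan sulphate and activate the Ras-MAPK cascade, which in turn induces Sprouty genes, whose products dampen the signal. In the developing kidney, FGFs made by the mesenchyme and by the ureteric bud sustain the nephron progenitors and promote branching of the bud. Sprouty1 restrains the response of the bud to GDNF and FGF10. H3K4me3 is a histone mark of promoters open to transcription, and H3K27me3 is the mark left by Polycomb repressive complexes.

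Chromatin was profiled in 3 populations. Cap mesenchyme, the nephron progenitors, consisted of Cited1-RFP+ cells of genotype Cited1nuc-TagRFP-T at E18.5, from a stock begun as (C57BL/6 x DBA)F1 and kept on C57BL/6J (N5). Ureteric epithelium, the branching tube that forms the collecting ducts, consisted of Hoxb7-GFP+ cells of genotype Hoxb7myr-Venus/+ at E15.5, from a stock begun as (C57BL/6J x CBA/J)F2 and kept on C57BL/6J. The embryonic stem cells were the wild-type line E14 of strain 129/Ola at passage 15. Both kidney populations therefore depended on a reporter, under Cited1 or Hoxb7, and the stem cells on 1 line. RNA was taken at E11.5 from C57BL/6 wild types, as hand-dissected metanephric mesenchyme and ureteric bud, called mesenchyme and bud where RNA values are given. RNA and chromatin were thus never measured at the same age, in the same strain or by the same isolation. With 1 sample per group, none of the differences has a replicate check or a test.

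Most marker genes followed the tissue labels: 7 of 9 mesenchyme markers were 4-fold higher in mesenchyme and 9 of 9 ureteric markers were 4-fold higher in the bud. Cited1 itself was an exception, at 2.78 FPKM in mesenchyme RNA and 8.34 in bud RNA. Stromal markers summed to 227 FPKM in mesenchyme and 2.19 in bud, with 6 of 6 being 4-fold higher in mesenchyme, and endothelial markers to 30.9 and 3.35 FPKM in the same tissues, with 3 of 6. Of 7 blood markers, 1 was 4-fold higher in mesenchyme, of 6 nerve markers none was in either direction, and no pluripotency marker reached 1 FPKM. In these dissected tissues fewer cells of a type and less RNA per cell cannot be told apart, and the part of stromal or endothelial RNA in the mesenchyme values below was not tested. Among genes at 1 FPKM or more in both tissues the median difference was -0.46 on the log2(FPKM + 1) scale, so levels were on the whole higher in ureteric bud. Cap mesenchyme had 32992 H3K4me3 peaks, ureteric epithelium 23958 and stem cells 67022. The H3K27me3 lists were far less even, with 108394, 144362 and 12879 peaks in the same order of populations. Endothelial markers had H3K4me3 at 1 of 6 starts in cap mesenchyme, 6 of 6 in the ureteric epithelium and 3 of 6 in stem cells. Mesenchyme markers had H3K4me3 at 9 of 9 starts and H3K27me3 at 1 of 9 in cap mesenchyme. Ureteric markers had H3K4me3 at 7 of 9 starts and H3K27me3 at 5 of 9 in the ureteric epithelium. H3K27me3 in that population was thus also called at genes with 4-fold higher RNA in the bud.

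The promoters of the members whose RNA or marks differed most are shown as the 250 bases before the annotated start, from RefSeq (GRCm38.p6, which is mm10), 5′ to 3′ on the strand of the gene. Capitals mark CG dinucleotides, which are dense in the promoters that carry H3K4me3 in many cell types. Fgf10 (chr13:118714449-118714698, plus strand) was the ligand with the largest RNA difference and Fgf7 (chr2:126034408-126034657, plus strand) is its closest relative. Fgf5 (chr5:98253934-98254183, plus strand) is shown for its marks, which differed between the kidney populations. Fgf12 (chr16:28753244-28753493, minus strand), Fgfr4 (chr13:55152568-55152817, plus strand), Spry1 (chr3:37639697-37639946, plus strand) and Spry2 (chr14:105896820-105897069, minus strand) had higher RNA in the bud.
Fgf10: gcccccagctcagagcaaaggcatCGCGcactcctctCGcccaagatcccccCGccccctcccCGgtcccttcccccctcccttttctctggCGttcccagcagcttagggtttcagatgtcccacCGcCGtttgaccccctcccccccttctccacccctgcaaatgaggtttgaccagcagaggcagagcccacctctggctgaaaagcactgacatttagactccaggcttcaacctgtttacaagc
Fgf7: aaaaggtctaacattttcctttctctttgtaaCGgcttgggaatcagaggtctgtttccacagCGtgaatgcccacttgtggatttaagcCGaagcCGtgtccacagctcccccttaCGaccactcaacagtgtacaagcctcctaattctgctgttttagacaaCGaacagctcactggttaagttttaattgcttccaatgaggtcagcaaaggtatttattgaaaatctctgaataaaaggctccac
Fgf5: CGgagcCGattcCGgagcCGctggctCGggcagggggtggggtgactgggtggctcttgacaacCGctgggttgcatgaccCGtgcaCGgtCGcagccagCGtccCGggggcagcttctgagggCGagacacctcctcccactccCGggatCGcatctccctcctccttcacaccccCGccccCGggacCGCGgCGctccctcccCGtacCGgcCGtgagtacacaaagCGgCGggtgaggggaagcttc
Fgf12: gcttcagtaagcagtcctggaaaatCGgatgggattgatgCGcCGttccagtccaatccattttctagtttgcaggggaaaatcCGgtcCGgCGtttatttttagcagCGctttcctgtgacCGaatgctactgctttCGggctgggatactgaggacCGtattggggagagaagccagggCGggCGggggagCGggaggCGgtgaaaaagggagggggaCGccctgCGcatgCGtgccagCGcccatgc
Fgfr4: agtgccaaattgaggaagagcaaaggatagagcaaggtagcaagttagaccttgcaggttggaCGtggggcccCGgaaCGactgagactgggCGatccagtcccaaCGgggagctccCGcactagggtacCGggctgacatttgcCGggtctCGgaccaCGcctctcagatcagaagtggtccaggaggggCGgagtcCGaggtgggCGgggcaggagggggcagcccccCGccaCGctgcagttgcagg
Spry1: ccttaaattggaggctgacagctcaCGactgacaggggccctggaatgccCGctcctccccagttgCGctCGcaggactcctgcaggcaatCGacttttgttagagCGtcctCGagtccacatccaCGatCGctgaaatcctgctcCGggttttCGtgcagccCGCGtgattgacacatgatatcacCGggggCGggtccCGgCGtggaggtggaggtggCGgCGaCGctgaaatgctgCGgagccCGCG
Spry2: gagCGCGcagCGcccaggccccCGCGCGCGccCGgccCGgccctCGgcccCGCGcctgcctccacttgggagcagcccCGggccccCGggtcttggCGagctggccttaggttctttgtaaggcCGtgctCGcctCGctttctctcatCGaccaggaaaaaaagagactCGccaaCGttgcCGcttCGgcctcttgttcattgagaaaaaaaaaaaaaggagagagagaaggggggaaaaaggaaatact
Spry1 and Spry2 held 23 CG each and Fgf5 held 24, against 18 in Fgf12, 15 in Fgfr4, 8 in Fgf10 and 6 in Fgf7. Over the 24 members with an entry in the promoter table the count ran between 2 (Fgf13) and 37 (Fgf18), with a median of 13.5, beside a median of 10 over 17492 protein-coding genes. An ETS factor motif, CCGGAAGT, was searched on both strands of these windows and matched 1 of the 24 members, Fgfrl1, and 3.82% of all genes.

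RNA was given as FPKM, fragments that the authors scaled by transcript length and by the mapped fragments of the library, summed over the reference transcripts of a gene. A gene was counted as 4-fold different when log2(FPKM + 1) differed by 2 or more and the higher tissue had at least 2 FPKM. By that rule 1 member, Fgf10, was higher in mesenchyme, where 0.944% of protein-coding genes were, and 4 members, Fgf12, Fgfr4, Spry1 and Spry2, were higher in the bud, where 2.17% were. In an alternative called rescaling, every difference was shifted by the same amount. The shift brought the median among genes at 1 FPKM or more in both tissues to 0. The counts then became 1 in mesenchyme and 2 in the bud, Fgfr4 and Spry1. The median difference over the 33 members was 0, beside -0.0031 over all protein-coding genes with a level. Of the 33, 11 reached 1 FPKM in mesenchyme (46.4% of genes), 12 in the bud (48.5%) and 15 in either (51.6%), and 6 were listed at 0 in both (25.3%).

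**Figure D1:**
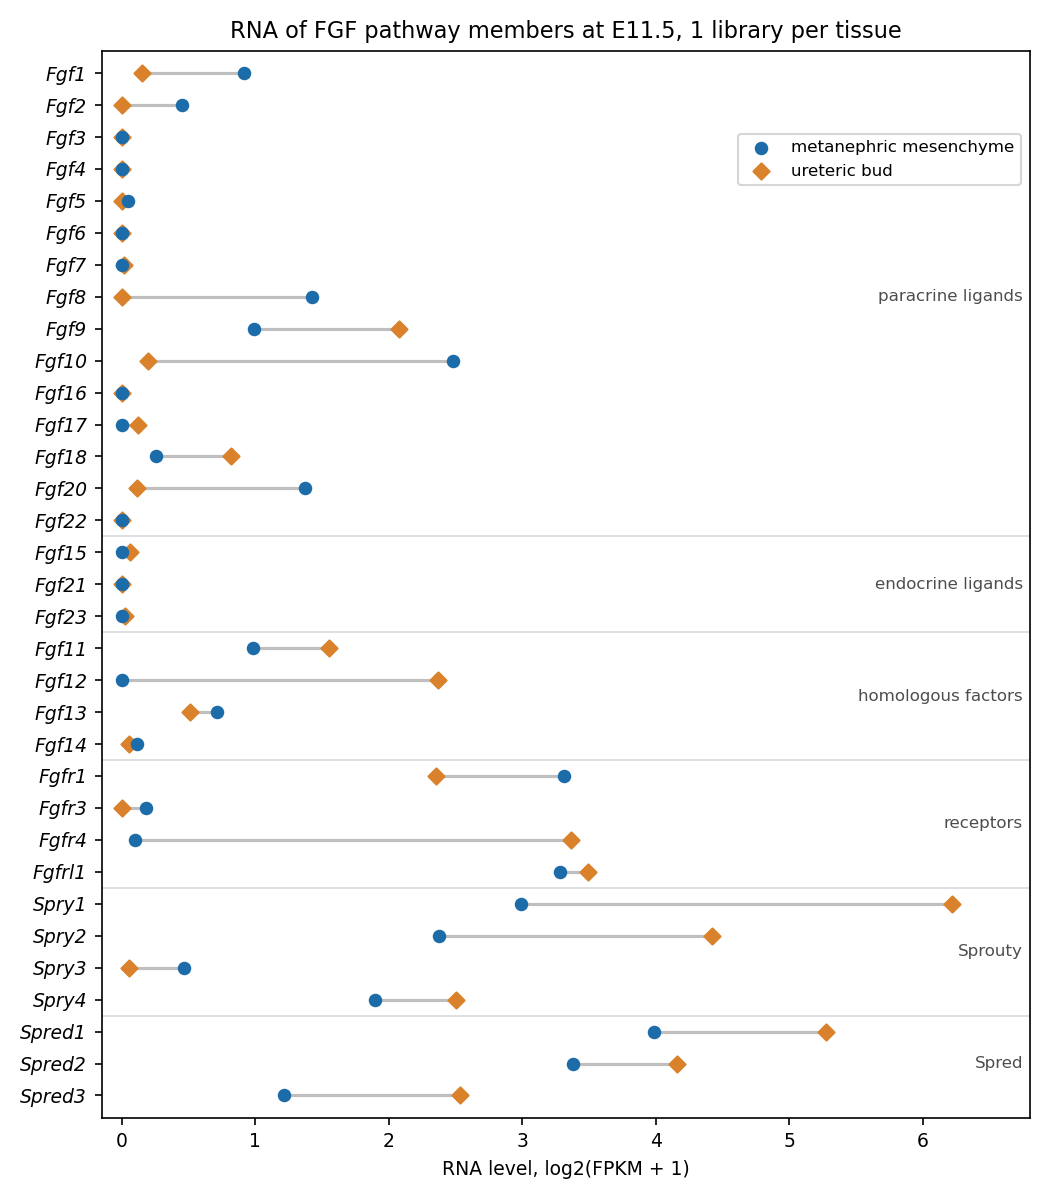
RNA level of each member in metanephric mesenchyme and the ureteric bud, 1 library each, plotted as log2(FPKM + 1) and grouped by role. The gaps are widest for Fgfr4 and Spry1, both higher in ureteric bud, the widest gap in the other direction is that of Fgf10, and most ligands lie near 0 in both.

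Among the paracrine ligands the mesenchyme side was led by Fgf10, Fgf8 and Fgf20. Fgf10, which signals to the bud epithelium, had 4.60 FPKM in mesenchyme and 0.147 in the bud, a difference of 2.29 on the log2(FPKM + 1) scale. The authors' intervals for its most abundant transcript were 3.74 to 5.46 FPKM in mesenchyme and 0.035 to 0.259 in the bud, and so did not overlap. Fgf8, which is needed for survival of early nephron structures, had 1.68 FPKM in mesenchyme and was listed at 1.03e-05 in the bud. Fgf20, a ligand of nephron progenitors, had 1.59 FPKM in mesenchyme and 0.0850 in the bud. Neither Fgf8 nor Fgf20 was 4-fold different by the rule. Their differences, 1.42 for Fgf8 and 1.25 for Fgf20, were below the 2 it asks for, and neither gene reached 2 FPKM. Most of the Fgf8 signal, 71.3% in mesenchyme, came from 1 of its transcripts, with an interval of 0.224 to 2.17 FPKM there.

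Fgf9, the ligand made by the ureteric bud that sustains progenitors together with Fgf20, went the other way. It had 0.988 FPKM in mesenchyme and 3.23 in the bud, a difference of -1.09, short of 4-fold. The intervals of its most abundant transcript were 0.666 to 1.31 FPKM in mesenchyme and 1.56 to 4.66 in the bud. Fgf18, a ligand of the same subfamily as Fgf8, was low in both, at 0.196 FPKM in mesenchyme and 0.767 in the bud. Fgf1, a ligand without a secretion signal that binds every FGF receptor, had 0.884 FPKM in mesenchyme and 0.113 in the bud.

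The other ligands were near the bottom of the scale. Fgf2, which also lacks a secretion signal, had 0.369 FPKM in mesenchyme and was listed at 0 in the bud. Fgf5, a ligand known for ending hair growth, had 0.0346 FPKM in mesenchyme and was likewise listed at 0 in the bud. Fgf7 and Fgf17 were listed at 0 in mesenchyme and had 0.0137 and 0.0862 FPKM in the bud. Fgf3, Fgf4, Fgf6, Fgf16 and Fgf22 were listed at 0 in both tissues. The endocrine ligands, hormones that act through Klotho proteins, were as low: Fgf15 and Fgf23 were listed at 0 in mesenchyme, with 0.0463 and 0.0162 FPKM in the bud, and Fgf21 was listed at 0 in both. A level of 0 in an FPKM table can be a failed estimate, and depth is unknown here, so these genes are described as listed at 0 and not as silent.

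The FGF homologous factors are intracellular proteins that resemble FGFs but bind sodium channels and do not activate FGF receptors. Fgf12 was listed at 0 in mesenchyme and had 4.16 FPKM in the bud. Of its bud signal 58.5% came from 1 transcript, at 2.43 FPKM with an interval of 1.54 to 3.33, and 32.2% from a variant that starts at another position. Fgf11 had 0.979 FPKM in mesenchyme and 1.93 in the bud, with overlapping intervals for its most abundant transcript. Fgf13 had 0.640 FPKM in mesenchyme and 0.424 in the bud, and Fgf14 had 0.0857 and 0.0389 in the same tissues.

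Among the receptors the largest difference was that of Fgfr4, with 0.0736 FPKM in mesenchyme and 9.28 in the bud, a difference of -3.26. Its bud signal was spread over several transcripts. The most abundant had 4.55 FPKM in the bud, with an interval of 3.24 to 5.86, and 0.000695 in mesenchyme. Fgfr1, a receptor through which mesenchyme responds to FGF8 and FGF9, had 8.91 FPKM in mesenchyme and 4.10 in the bud, a difference of 0.96. The level was the sum of 2 transcripts of nearly the same length. One had 7.46 FPKM in mesenchyme, with an interval of 0 to 16.5, and 0.567 in the bud, while the other had 1.46 in mesenchyme, with an interval of 0 to 9.82, and 3.54 in the bud. Taking the most abundant transcript alone made the Fgfr1 difference 2.43, past the 4-fold rule. Fgfrl1, a receptor without a kinase domain that is required for nephron formation, had 8.72 FPKM in mesenchyme and 10.3 in the bud. Its difference of -0.21 changed sign after rescaling. Fgfr3, a kinase receptor, had 0.135 FPKM in mesenchyme and was listed at 0 in the bud.

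The Sprouty and Spred genes, inhibitors of the Ras-MAPK branch, held the highest RNA of the set. Spry1 had 6.96 FPKM in mesenchyme and 73.4 in the bud, a difference of -3.22. Spry2 had 4.21 FPKM in mesenchyme and 20.4 in the bud, a difference of -2.04 that was -1.58 after rescaling. Spry4 followed the same direction with 2.73 FPKM in mesenchyme and 4.67 in the bud, a difference of -0.60 that was -0.15 after rescaling. A transcript antisense to Spry4 was left out. Spry3 was low and went the other way, with 0.380 FPKM in mesenchyme and 0.0371 in the bud. The 3 Spred genes, whose products block Ras activation through neurofibromin, were all higher in the bud but below 4-fold. Spred1 had 14.9 FPKM in mesenchyme and 37.7 in the bud, a difference of -1.29. Spred2 had 9.41 FPKM in mesenchyme and 16.9 in the bud, a difference of -0.78 that was -0.33 after rescaling. The intervals of the most abundant Spred2 transcript overlapped. For Spred1 and Spred2 the most abundant transcript carried the authors' status LOWDATA in both tissues. It held 62.1% of the mesenchyme level for Spred1 and 59.2% for Spred2. Its share of the bud level was 52.2% for Spred1 and 51.8% for Spred2. Spred3 had 1.32 FPKM in mesenchyme and 4.80 in the bud, a difference of -1.32. Summed over the 4 Sprouty genes the level was 14.3 FPKM in mesenchyme and 98.5 in the bud, of which Spry1 held 6.96 and 73.4.

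A mark was called present when a peak covered at least 1 bp of the window of 1 kb on each side of the outermost annotated start. H3K4me3 lay at 31 of 33 starts in cap mesenchyme (63.6% of protein-coding genes), 25 in the ureteric epithelium (59.7%) and 28 in embryonic stem cells (67.5%). H3K27me3 lay at 7 starts in cap mesenchyme (7.72% of genes), 11 in the ureteric epithelium (11.2%) and 14 in stem cells (11.9%). H3K4me3 stood alone at 24 starts in cap mesenchyme (57.7%), 15 in the ureteric epithelium (53.2%) and 14 in stem cells (56.4%). Both marks together were found at 7 starts in cap mesenchyme (5.88%), 10 in the ureteric epithelium (6.46%) and 14 in stem cells (11.1%). Cell populations are mixtures, so both marks at a start need not lie in the same cell. The numbers of H3K27me3 peaks differ so much between lists that the counts of different populations are not on 1 scale. With the lists of a mark cut to equal length, H3K27me3 was left at 4 starts in cap mesenchyme and 7 in ureteric epithelium.

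**Figure D2:**
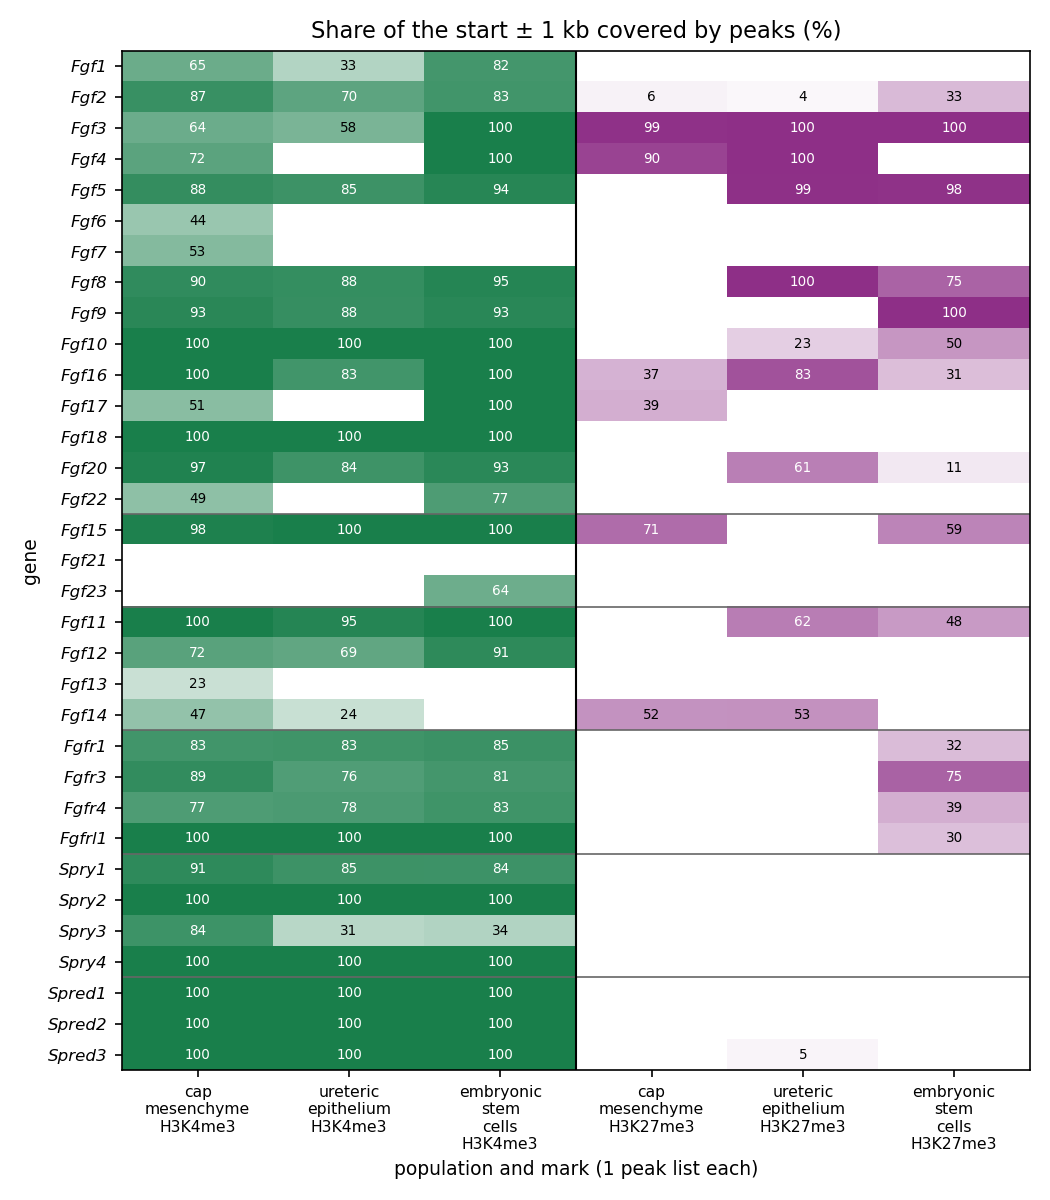
Share of the window of 1 kb on each side of each member's start that peaks cover, in percent. There is 1 row per gene and 1 column for each mark in cap mesenchyme, ureteric epithelium and embryonic stem cells. All 4 Sprouty genes show H3K4me3 coverage in every population and no H3K27me3 coverage. The 4 receptors show H3K4me3 coverage in every population and H3K27me3 coverage in stem cells alone.

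Ureteric epithelium had H3K27me3 where cap mesenchyme lacked it at 6 members, Fgf5, Fgf8, Fgf10, Fgf11, Fgf20 and Spred3 (5.72% of genes). The opposite was found at 2, Fgf15 and Fgf17 (2.29%). Fgf8 (chr19:45736491-45742941, minus strand) had a H3K27me3 peak of 7.309 kb in the ureteric epithelium and one of 4.988 kb in stem cells. In cap mesenchyme the nearest H3K27me3 peak at Fgf8 was 0.155 kb wide and lay more than 2 kb upstream of the start. In the list of the ureteric epithelium 99.3% of the H3K27me3 peaks had a lower score than the strongest peak at Fgf8. Fgf20 (chr8:40279166-40286953, minus strand) had H3K4me3 peaks of 4.445 kb in cap mesenchyme and 2.063 kb in the ureteric epithelium, and a H3K27me3 peak of 1.986 kb in the ureteric epithelium with 98.8% of that list below it. At Fgf10 (chr13:118714699-118792573, plus strand), whose promoter is the one with 8 CG above, the H3K4me3 peak measured 6.505 kb in cap mesenchyme and 3.635 kb in the ureteric epithelium. The H3K27me3 peak of Fgf10 in ureteric epithelium was 0.905 kb wide, began 539 bp after the start, and covered 23.1% of the window. These 3 ligands were the paracrine ligands at more than 1 FPKM in mesenchyme, and in the bud their RNA was at most 0.147 FPKM.

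The other 3 members with this difference did not share that RNA pattern. Fgf5 (chr5:98254184-98277033, plus strand), with 24 CG in its promoter, had a H3K27me3 peak of 3.213 kb in the ureteric epithelium that covered 99.3% of the window, and almost no RNA in either tissue. Fgf11 had a H3K27me3 peak of 1.873 kb in the ureteric epithelium and more RNA in the bud than in mesenchyme. Spred3 had a peak of 2.389 kb in the ureteric epithelium that reached only 4.85% of the window, and H3K27me3 was not called at the start of Spred3 given in the promoter table, 1.423 kb further in. Fgf8, Fgf11 and Fgf20 kept the difference with the wider window, a minimum score of 50 and lists of equal length. They also kept it with 50% of the window covered and with the whole gene. Fgf10 lost it when 50% of the window had to be covered or when the whole gene was used. Fgf5 lost it with a window of 2 kb or the whole gene. Spred3 kept it with the whole gene and lost it under the other settings named here. The Spred3 peak scored 39.2. The lowest H3K27me3 score listed was 40 in cap mesenchyme and 30 in ureteric epithelium.

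**Figure D3:**
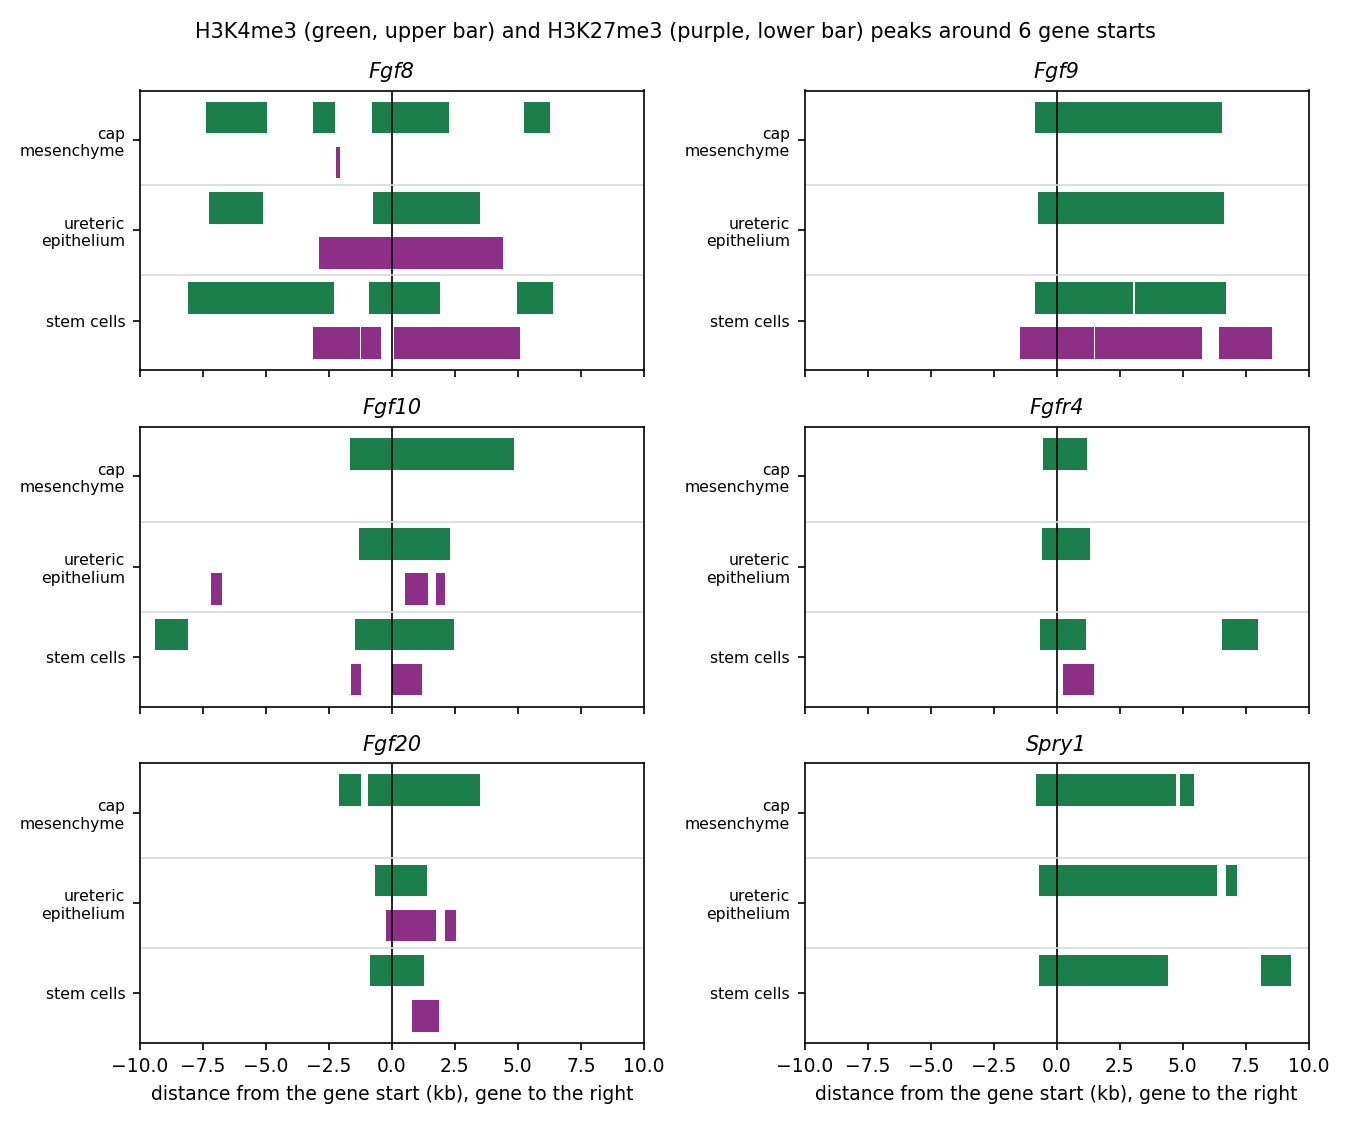
Peaks within 10 kb of the start of Fgf8, Fgf10, Fgf20, Fgf9, Fgfr4 and Spry1, by distance from the start along the gene's strand, with 1 line for each population and mark. H3K27me3 bars cover the start of Fgf8 and Fgf20 in ureteric epithelium and are missing from it in cap mesenchyme, while Spry1 has H3K4me3 bars at its start in all 3.

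Fgf15 and Fgf17 showed the opposite difference. The widest H3K27me3 peak at the start was 0.895 kb for Fgf15 and 0.534 kb for Fgf17 in cap mesenchyme. These were wider than 98.0% and 95.4% of that list, whose median width was 195 bp. H3K27me3 covered 70.5% of the window at Fgf15 and 38.7% at Fgf17. Fgf3, Fgf4 and Fgf15 are neighbours on chromosome 7, with gaps of 18.04 kb between Fgf3 and Fgf4 and 31.29 kb between Fgf4 and Fgf15, and their starts differed in state. Fgf3, a ligand of inner ear and tail development, carried both marks in all 3 populations. Fgf4, a ligand of the inner cell mass and limb bud, carried both marks in cap mesenchyme, H3K27me3 alone in the ureteric epithelium and H3K4me3 alone in stem cells. Fgf15, a hormone of bile acid control, carried both marks in cap mesenchyme, H3K4me3 alone in the ureteric epithelium and both in stem cells. The H3K4me3 peak of Fgf4 in stem cells was 9.386 kb wide, against 1.496 kb in cap mesenchyme.

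Cap mesenchyme had H3K4me3 where ureteric epithelium lacked it at 6 members, Fgf4, Fgf6, Fgf7, Fgf13, Fgf17 and Fgf22 (4.58% of genes), and the reverse at none (0.680%). Each of these 6 was listed below 1 FPKM in both tissues. Their cap mesenchyme peaks were modest: the strongest, at Fgf7, a ligand of mesenchyme that acts on epithelia, outranked 50.4% of that list and the weakest, at Fgf13, 7.37%. The Fgf7 peak was 1.068 kb wide, over a start whose upstream bases held 6 CG. Fgf6, Fgf7 and Fgf13 had neither mark at this start in ureteric epithelium or in stem cells. Fgf13 does have inner starts, and the one 451.1 kb further in carried H3K4me3 without H3K27me3 in all 3 populations. Its inner start at 18.22 kb carried both marks in cap mesenchyme and H3K4me3 alone elsewhere. The inner start at 419.5 kb carried neither mark in any population.

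Inner starts also changed the picture for the other long homologous factors. Fgf12 carried H3K4me3 alone at its outermost start in every population, while its 3 inner starts, between 188.3 and 307.2 kb further in, carried both marks in stem cells and H3K4me3 alone in ureteric epithelium. The innermost carried both marks in cap mesenchyme too. Fgf14 carried both marks at its outermost start in cap mesenchyme and in the ureteric epithelium and neither in stem cells. Its inner start, 485.1 kb away, carried H3K27me3 alone in cap mesenchyme and both marks in the ureteric epithelium and in stem cells.

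Of the 14 members with both marks in stem cells, 10 had H3K4me3 alone in cap mesenchyme (57.2% of genes with both marks in stem cells) and 6 in the ureteric epithelium (42.7%). Both marks were kept at 4 in cap mesenchyme (37.7%) and at 8 in the ureteric epithelium (37.8%). The 4 receptors, Fgfr1, Fgfr3, Fgfr4 and Fgfrl1, and the ligand Fgf9 had both marks in stem cells and H3K4me3 alone in both kidney populations. With lists of equal length Fgfr3, Fgfrl1 and Fgf9 no longer had both marks in stem cells, and with 50% of the window covered Fgfr1, Fgfr4 and Fgfrl1 did not. Fgfr4 (chr13:55152818-55168759, plus strand) had H3K4me3 peaks of 1.744 kb in cap mesenchyme, 1.899 kb in the ureteric epithelium and 1.831 kb in stem cells, widths that lay close together where the RNA levels did not. Fgfr3 had H3K4me3 peaks of 3.868 kb in cap mesenchyme and 3.230 kb in the ureteric epithelium, beside RNA of at most 0.135 FPKM in either E11.5 tissue. Fgf9 (chr14:58070671-58112854, plus strand) had H3K4me3 peaks of 7.424 kb in cap mesenchyme, 7.393 kb in the ureteric epithelium and 3.909 kb in stem cells, and a H3K27me3 peak of 2.940 kb in stem cells.

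Fgf2, Fgf3 and Fgf16 carried both marks in all 3 populations (any H3K27me3 in all 3 was found at 3.93% of genes). For Fgf2 the call rested on weak peaks, with 6.20% of the window covered by H3K27me3 in cap mesenchyme and 3.55% in ureteric epithelium. In stem cells the Fgf2 peak of H3K27me3 outranked only 0.25% of that list. At the Fgf2 start given in the promoter table, 0.176 kb further in, H3K27me3 was not called in ureteric epithelium. For Fgf16 the strongest H3K27me3 peak in ureteric epithelium outranked 19.4% of that list and was lost with a score of at least 50, and with lists of equal length H3K27me3 was called in neither kidney population. At the outermost start no H3K27me3 was called in any population for 15 members (81.7% of genes). They were all 4 Sprouty genes, Spred1, Spred2, Fgf1, Fgf6, Fgf7, Fgf12, Fgf13, Fgf18, Fgf21, Fgf22 and Fgf23. Fgf12 and Fgf13 did have H3K27me3 at inner starts. With the whole gene used, it was called in at least 1 population at Fgf6, Fgf7, Fgf12, Fgf13, Fgf18, Fgf23, Spry3, Spred1 and Spred2. Fgf21, a hormone of liver and fat, had neither mark at its start in any population. With a window of 2 kb, H3K4me3 was called at Fgf21 in ureteric epithelium and in stem cells. Fgf23, a phosphate hormone of bone, had H3K4me3 at its start in stem cells alone. Fgf1 and Fgf18 had H3K4me3 alone throughout, and Fgf22, a relative of Fgf7, had it in cap mesenchyme and stem cells.

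The Sprouty and Spred starts lay under wide H3K4me3 peaks. At Spry1 (chr3:37639947-37644599, plus strand), whose promoter with 23 CG is shown above, the peak was 5.537 kb in cap mesenchyme, 7.037 kb in the ureteric epithelium and 5.090 kb in stem cells. At Spry2 (chr14:105891947-105896819, minus strand) it was 7.096 kb in cap mesenchyme, 7.115 kb in the ureteric epithelium and 12.319 kb in stem cells. Spry4 had the widest peak of the set, 17.890 kb in stem cells, against 4.203 kb in cap mesenchyme and 4.572 kb in the ureteric epithelium. Spry1, Spry2, Spry4, Spred1, Spred2 and Spred3 each had a peak among the widest 10% of the list in every population, a limit chosen after the values were seen, and so did Fgf9, Fgf10, Fgf11 and Fgfr1. Over all members with H3K4me3 this held for 13 of 31 in cap mesenchyme (24.6% of marked genes), 12 of 25 in the ureteric epithelium (18.6%) and 14 of 28 in stem cells (33.6%). Spry3, which lies on an unplaced scaffold in the annotation used, had peaks of 1.083 kb in cap mesenchyme, 0.620 kb in the ureteric epithelium and 0.673 kb in stem cells. Scores separated these genes less, because 13 members were tied at a score of 3100 in cap mesenchyme, which outranked 86.4% of the list.

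Marks in cap mesenchyme at E18.5 and ureteric epithelium at E15.5 were set beside RNA of mesenchyme and bud at E11.5, so neither pair matched in age or isolation. The 7 members with both marks in cap mesenchyme ran between 0 and 0.369 FPKM in mesenchyme. None of them reached 1 FPKM (16.5% of all genes in that state did). Of the 24 members with H3K4me3 alone there, 11 reached 1 FPKM (72.5% of all genes in that state). In ureteric epithelium 2 of the 10 members with both marks, Fgf11 and Spred3, reached 1 FPKM in the bud (25.1% of all genes in that state), and 10 of the 15 with H3K4me3 alone did (80.2%). Fgf4, with H3K27me3 alone in ureteric epithelium, was listed at 0 in the bud (5.64% of all genes in that state reached 1 FPKM). None of the 7 members with neither mark in ureteric epithelium passed 0.424 FPKM in the bud. Of all genes in that state, 9.03% reached 1 FPKM there. The highest of the 7 was Fgf13, which had H3K4me3 at inner starts in ureteric epithelium.

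CG content followed the states only in part. At the starts in the promoter table, the 10 members with H3K4me3 alone in stem cells had a median of 19.5 CG in the 250 upstream bases (15 over all such genes). The 10 with both marks had a median of 13 (17 over all), and the 4 with neither, Fgf6, Fgf7, Fgf13 and Fgf21, had 7.5 (2 over all). Of the members with both marks, Fgf3 with 4, Fgf11 with 5, Fgf14 with 7 at its inner start and Fgf10 with 8 lay within the range of the unmarked members, which had 2 to 9.

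The other genes of the pathway came from lists of coreceptors and binding proteins, heparan sulphate genes, signal transducers and target genes. Of 10 coreceptors and binding proteins, 1 was 4-fold higher in mesenchyme (0.944% of protein-coding genes). It was Flrt1, a membrane protein that binds FGF receptors, with 5.36 FPKM in mesenchyme and 0.364 in the bud. The Flrt1 start had H3K4me3 alone in cap mesenchyme and both marks in the ureteric epithelium, the states also seen at Fgf10. Fgfr2 had 5.37 FPKM in mesenchyme and 9.70 in the bud, a difference of -0.75, and its start had both marks in stem cells and H3K4me3 alone in the kidney populations, like the 4 receptors above.

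Of 24 heparan sulphate genes, 3 were 4-fold higher in the bud (2.17% of genes), each a sulphotransferase. Hs3st3b1 had 0.474 FPKM in mesenchyme and 21.8 in the bud. Hs3st3a1 had 0.0763 FPKM in mesenchyme and 4.34 in the bud, and Hs6st1 had 4.75 and 22.6 in the same tissues. The starts of Hs3st3a1 and Hs3st3b1 had both marks in cap mesenchyme and H3K4me3 alone in ureteric epithelium. None of 27 signal transducers was 4-fold different, beside 0.944% of genes higher in mesenchyme and 2.17% in the bud. With shares that low, a count of 0 in a list of this size does not set them apart.

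Of 22 target genes of FGF signalling, 5 were 4-fold higher in the bud (2.17% of genes) and 1 in mesenchyme (0.944%). The transcription factor Etv4 had 6.24 FPKM in mesenchyme and 41.0 in the bud. Its relative Etv5 had 3.95 FPKM in mesenchyme and 29.8 in the bud. Dusp6, a phosphatase that inactivates ERK, had 11.8 FPKM in mesenchyme and 106 in the bud, and Dusp4, another such phosphatase, had 5.64 and 26.5 in the same tissues. Ccnd1, the G1 cyclin, had 9.02 FPKM in mesenchyme and 112 in the bud. These 5 genes went in the direction of Spry1 and Spry2, and Etv4 and Etv5 are also known as targets of GDNF and Ret. Sall1, a nephron progenitor factor, had 12.5 FPKM in mesenchyme and was listed at 4.17e-05 in the bud. Over these 4 lists 2 genes were 4-fold higher in mesenchyme (0.944% of all genes) and 8 in the bud (2.17%). After rescaling to a median difference of 0 the split was 6 and 5.

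**Figure D4:**
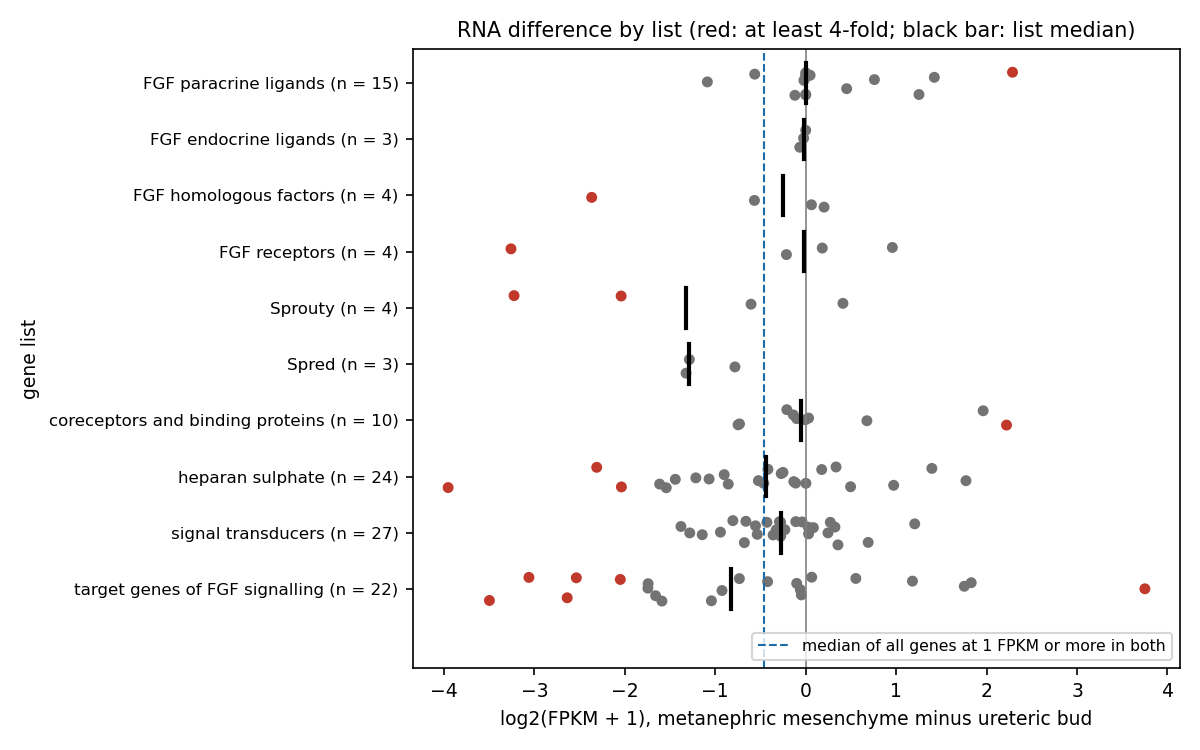
Difference in RNA, metanephric mesenchyme minus ureteric bud on the log2(FPKM + 1) scale, for each gene of the FGF set and of the other pathway lists, 1 point per gene, with list medians as bars and the median over all genes at 1 FPKM or more in both tissues as a dashed line. Hs3st3b1 at -3.95 and Ccnd1 at -3.50 lie farthest to the ureteric bud side, and Sall1 lies farthest to the mesenchyme side at 3.75.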

How the data were processed

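Peak lists for H3K4me3 and H3K27me3 and a table of transcript levels were taken as deposited. The submitters' processing notes name Bowtie2, MACS, TopHat, Cufflinks and Cuffdiff with build mm10. Versions, settings and the number of libraries behind each file are not given in the sources used here. Chromatin was unfixed and cut with micrococcal nuclease, per the labels, and the 3 input libraries were not analysed here. Each peak has a score, the authors' own value as deposited, used to rank peaks within a list and, in 1 alternative, to set a common minimum of 50. RNA levels are FPKM computed by the authors. The deposited FPKM table held 138486 transcripts, of which 5290 without a reference carried 93.6% of the mesenchyme total and 93.9% of the bud total and were left out.

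Transcripts that matched a RefSeq accession were summed per gene, which gave 21189 protein-coding genes a level. Of the 125 transcripts of members, 7 carried the authors' status LOWDATA and were kept in the sums. Strand came from the RefSeq promoter table for 24 members and from how the RNA table orders its loci for 9. Both sources gave the same strand for 24308 of 24308 genes. With 1 sample per group no test was run. Read depth is unknown. The scripts (Python 3.11.15, pandas 2.3.3, numpy 2.4.6) were tested on simulated data. The members, the lists and the tests were chosen with earlier results of these data known. Genes were named by a rule: all members, other pathway genes that were 4-fold different, and Fgfr2. Alternatives changed the pseudocount, the scale, the filter, the transcripts used, the window, the peaks used and the overlap.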

Additional observations from a re-analysis of the deposited data

Results flagged for a closer look

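A pair of deposited transcripts lies antisense to members and was left out of the sums. The one opposite Fgf11, 444 bp long, had 1.07 FPKM in mesenchyme, with an authors' interval of 0 to 2.43, and 3.04 FPKM in the bud, with an interval of 0.592 to 5.49. Fgf11 itself had 0.979 FPKM in mesenchyme and 1.93 in the bud. The one opposite Spry4, 103 bp long, had 454.5 FPKM in mesenchyme, with an interval of 138 to 771, and 936.8 FPKM in the bud, with an interval of 457 to 1417. Spry4 had 2.73 FPKM in mesenchyme and 4.67 in the bud. FPKM is scaled by transcript length, so a level over 103 bp is not comparable with one over the 4590 bp of the Spry4 transcript. Both were singled out because they show signal outside the levels compared above, with an interval clear of 0 in at least 1 tissue.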

How the results depend on the processing

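Of the counts over members and lists, 76 values under an alternative stayed within 1.5 times the main count and 16 did not. Of the differences of single members, 161 kept their side of the 4-fold rule and 4 did not. Many of the 161 could not have moved. Dropping the minimum level or asking for separate intervals left every difference unchanged, and members listed at 0 in both tissues could not pass the rule. Sizes moved more: a pseudocount of 0.1 FPKM took Fgf10 to 4.25, Fgf8 to 4.15, Fgf20 to 3.19, Fgf12 to -5.41 and Fgfr4 to -5.76. No member past the rule changed direction. Rescaling, which added 0.46 to every log2(FPKM + 1) difference, turned the sign of 5 others, Fgfrl1 (0.24), Fgf7 (0.44), Fgf15 (0.39), Fgf17 (0.34) and Fgf23 (0.43). Fgf7, Fgf15, Fgf17 and Fgf23 had at most 0.0862 FPKM in either tissue, so the added constant alone set their new sign. Fgf3, listed at 0 in both tissues, likewise moved to 0.46. The cause of these moves was not tested beyond what each alternative changes by its construction. Rescaling to a median difference of 0 left 2 members 4-fold higher in ureteric bud, with Fgf12 at -1.91 and Spry2 at -1.58, and gave 6 other pathway genes higher in metanephric mesenchyme and 5 in ureteric bud. A pseudocount of 0.1 FPKM also gave 6 pathway genes higher in metanephric mesenchyme. The most abundant transcript alone gave 2 members higher in metanephric mesenchyme, with Fgfr1 at 2.43 and Fgf12 at -1.78. Lists of equal length left H3K27me3 at 4 members in cap mesenchyme and 7 in ureteric epithelium, and both marks at 9 in stem cells. Requiring 50% of the window left H3K27me3 at 4 members in cap mesenchyme and 7 in stem cells, 1 member with H3K27me3 in cap mesenchyme but absent from ureteric epithelium, both marks at 7 in stem cells, and H3K4me3 alone in cap mesenchyme at 5 of those. The gene body gave H3K27me3 at 14 members in cap mesenchyme and 19 in ureteric epithelium. Any RefSeq start, an alternative chosen after seeing the data, gave 4 members with H3K27me3 in cap mesenchyme but absent from ureteric epithelium. No paired analysis was possible because each group held 1 sample, and no replicate could be left out.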
